A study of Homo sapiens with 5 samples.

Results

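The KLF genes encode Krüppel-like transcription factors, and 10 of them were followed across 5 expression arrays of MHH-ES-1, an established Ewing sarcoma cell line: KLF2, KLF3, KLF4, KLF5, KLF6, KLF7, KLF9, KLF10, KLF11 and KLF13. They were read through every probe set that the platform annotation gives to 1 of these symbols alone, which made 32 of the 54613 probe sets that are not controls. A probe set is a group of short array probes read as a single signal for one transcript. The cells had received a lipid-delivered synthetic microRNA mimic at a final concentration of 50 nM, and RNA was taken after 48 h. There were 2 arrays with the miR-483-5p mimic, 1 with the miR-483-3p mimic, which is the opposite arm of the same hairpin, and 2 with a scrambled mimic, which is the control. All 3 groups thus shared the cell line, the reagent and an added RNA duplex, and no untransfected cells were analysed here. Each second array is labelled a repeat, and no label tells of separate cultures, so a p-value covers array-to-array spread alone and that spread may be technical. The family was taken up because a KLF2 probe set was already known to be low with both mimics, and the values of KLF2 and of its relatives in the same comparisons are therefore given as a description, with no test.

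Krüppel-like factors bind GC-rich and CACCC sequences through zinc fingers at their C-terminal end, and they differ in the part that precedes the fingers. KLF2, KLF4, KLF5, KLF6 and KLF7 act mostly as activators, KLF3 recruits the corepressor CtBP, and KLF9, KLF10, KLF11 and KLF13 recruit the corepressor SIN3A. Several of them, KLF2, KLF4, KLF6 and KLF10 among them, are induced within a short time by growth factors, serum or stress. In endothelial cells KLF2 and KLF4 are induced by the kinase ERK5 through the transcription factor MEF2. The SP factors, such as SP1, have similar zinc fingers and bind overlapping sequences.

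The promoters of KLF2 and KLF4 are shown because these are the members known to be driven by MEF2, and because KLF2 carries the largest difference described here. Each is the 250 bases before the start of the gene, 5′ to 3′, from RefSeq on GRCh38.p14. KLF2 lies on the plus strand and its window is chr19:16324576-16324825. KLF4 lies on the minus strand and its window is chr9:107489770-107490019. Capitals mark a match to the MEF2 consensus.
KLF2: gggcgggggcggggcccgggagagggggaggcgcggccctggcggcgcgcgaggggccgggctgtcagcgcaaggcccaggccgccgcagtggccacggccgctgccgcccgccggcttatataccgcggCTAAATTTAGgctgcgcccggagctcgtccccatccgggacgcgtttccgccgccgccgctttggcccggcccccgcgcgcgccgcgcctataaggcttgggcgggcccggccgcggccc
KLF4: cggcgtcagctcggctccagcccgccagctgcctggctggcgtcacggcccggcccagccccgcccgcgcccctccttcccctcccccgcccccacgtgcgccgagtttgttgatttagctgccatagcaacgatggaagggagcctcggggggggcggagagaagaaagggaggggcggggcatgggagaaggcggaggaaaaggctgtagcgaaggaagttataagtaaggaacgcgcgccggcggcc
The capitals in KLF2 read CTAAATTTAG, begin 120 bases before the start and are the same on both strands. RefSeq windows were used for 13 gene starts of 8 members, and the MEF2 consensus, searched on both strands, was found in that of KLF2 and in none of the other 12. It was present in 2.80% of all 35116 windows of the same length. The exact letters CTAAATTTAG, which are one form of it, were present in 0.0570%. They were searched for because KLF2 has them, so their share does not say how unusual the KLF2 window is. The GC box GGGCGG was found on either strand in 8 of the 13 windows, against 42.6% of all windows, with 4 matches each in KLF2 and KLF4. The letters CACCC were found on either strand in 6 of the 13, against 54.7% of all windows, and not in those of KLF2 and KLF4. These matches describe letters and are not evidence of binding.

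Across the series, median signals were 39.2 and 44.9 with miR-483-5p, 41.9 with miR-483-3p, against 44.4 and 43.2 in the control, on arrays the authors had scaled to a common mean. Any 2 arrays correlated at r = 0.975 to 0.981 over all probe sets, which are not independent replicates. All 10 Ewing sarcoma marker genes on the list had a mean signal above 27.2, the 40th percentile over the whole array, and CD99, the surface marker of these tumours, had signals of 4381 to 5093 over the 5 arrays. The 4 endothelial markers, whose cell type KLF2 is best known from, summed to signals of 231.7 and 250.9 with miR-483-5p, 227.5 with miR-483-3p, against 241.0 and 247.1 in the control, most of it from PECAM1. The defining marker among them, CDH5, was dim and lay lower in every mimic array, at 24.4 and 17.6 with miR-483-5p, 9.7 with miR-483-3p, against 32.4 and 29.3 in the control. The 2 leukocyte markers measured were under the 40th percentile and summed to 43.7 to 47.3 with miR-483-5p, 32 with miR-483-3p, against 24.4 to 36.5 in the control. The 3 epithelial markers were under it as well, with overlapping sums of 24.9 to 64.2 over all arrays. The GAPDH 3′ probe set divided by its 5′ counterpart, which tracks RNA integrity, gave 1.09 and 1.10 with miR-483-5p, 1.06 with miR-483-3p, against 1.02 and 0.996 in the control. Of the markers, the Ewing sarcoma genes STEAP1, LIPI and ID2, the endothelial CDH5 and the epithelial CDH1 lay lower in every mimic array than in both controls, and the Ewing sarcoma gene CCND1 and the leukocyte CD3E lay higher. LIPI, for one, had 899.8 and 825.2 with miR-483-5p, 967.1 with miR-483-3p, against 1324.9 and 1186.2 in the control. The GAPDH ratio and these 7 markers thus separated mimic from control arrays as the brighter KLF2 probe set did. The remaining markers did not. Over all probe sets, 12.3% lay lower and 9.98% higher in every mimic array than in both controls. The part of the GAPDH ratio and of the markers in the differences below was not tested.

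KLF2, a factor of resting endothelial cells and T cells, was lower with either arm of miR-483 in its brighter probe set. That probe set, 219371_s_at, had signals of 175.1 and 169.7 with miR-483-5p, 233.3 with miR-483-3p, against 690.7 and 532.2 in the control. All 3 mimic arrays were low, both control arrays were high, and no mimic array came near the lower control. Mean signals were 172 ± 3.82 for miR-483-5p, against 611 ± 112 for the control (SD, n = 2 each). On the log2(signal + 32) scale, which understates differences of dim probe sets, miR-483-5p minus control was -1.64 (SE 0.16), a level 3.12-fold lower, and miR-483-3p minus control was -1.27 (SE 0.20), 2.41-fold lower. The control arrays differed from each other by 0.36 on this scale and the miR-483-5p arrays by 0.04. Ranked over all 54613 probe sets, this was the lowest difference for miR-483-5p and position 23 from the lowest for miR-483-3p. In RNA from whole cultures, fewer cells with KLF2 RNA and less KLF2 RNA in each cell cannot be told apart.

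The dimmer KLF2 probe set, 226646_at, did not share this pattern. It had signals of 46.5 and 50.5 with miR-483-5p, 55.0 with miR-483-3p, against 45.1 and 43.7 in the control. The 3 mimic arrays lay slightly above both controls, the opposite order to the brighter probe set. Its differences were 0.08 (SE 0.11) for miR-483-5p and 0.19 (SE 0.14) for miR-483-3p on the log2 scale. Bright minus dim, the log2 differences were thus apart by -1.72 for miR-483-5p and -1.45 for miR-483-3p. Within arrays, the signal ratio of the brighter to the dimmer probe set was 3.77 and 3.36 with miR-483-5p, 4.24 with miR-483-3p, against 15.3 and 12.2 in the control. The ratio shows that the 2 probe sets changed unequally and does not say which of them follows the KLF2 transcript. Both lie above the 40th percentile, no detection calls came with the signals, and where the probes of each lie in the transcript is not used here. An _s_at suffix on this platform marks probes that can match more than 1 transcript.

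**Figure D1:**
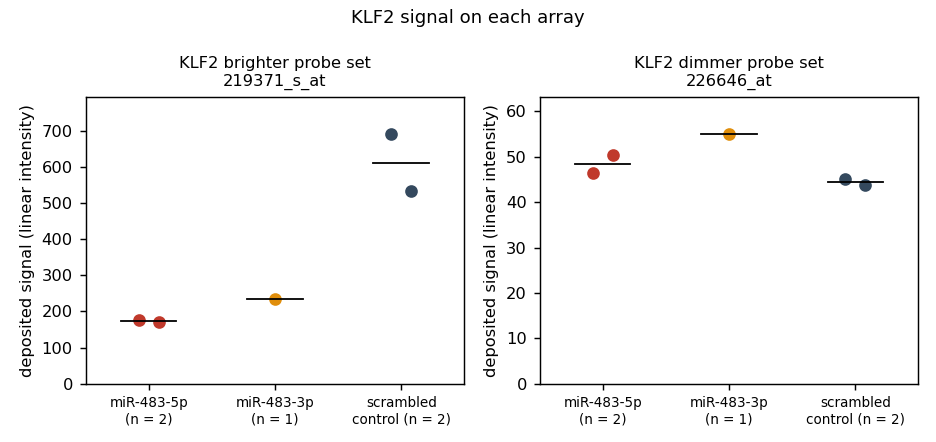
Signal of the brighter (left) and dimmer (right) KLF2 probe set on each array, on linear axes that start at 0 and differ in range. Points are arrays and lines are group means; the brighter probe set lies at 169.7 to 233.3 on the mimic arrays against 532.2 and 690.7 in the control, whereas the dimmer runs from 43.7 to 55.0 over all 5.

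KLF4, an activator known for its role in reprogramming to pluripotency and in epithelial differentiation, was dim in both of its probe sets. Probe set 220266_s_at had 27.8 and 52.3 with miR-483-5p, 16.7 with miR-483-3p, against 35.3 and 30.3 in the control. The miR-483-5p arrays lay on either side of the controls, and the miR-483-3p array lay below them. Probe set 221841_s_at had 6.3 and 9.9 with miR-483-5p, 14.3 with miR-483-3p, against 1.2 and 2.3 in the control, all under the 40th percentile. The log2 differences of these probe sets were 0.13 and 0.25 for miR-483-5p and -0.41 and 0.46 for miR-483-3p, so the 2 disagreed in sign for the 3p arm. KLF5, an activator of epithelial growth, was dim as well, with signals between 17.2 and 55.9 over its 2 probe sets and all arrays. Its miR-483-5p arrays overlapped the controls in both probe sets, with log2 differences of 0.01 and 0.03. For miR-483-3p the differences were 0.21 and -0.22, so its probe sets disagreed in sign as well.

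KLF6, an activator made in most tissues and studied as a tumour suppressor in carcinomas, had the brightest signals among the member probe sets and was modestly lower with the mimics. Probe set 1555832_s_at had 1152.2 and 983.4 with miR-483-5p, 910.1 with miR-483-3p, against 1229.4 and 1225.2 in the control. Probe set 224606_at had 944.1 and 806.1 with miR-483-5p, 796.9 with miR-483-3p, against 1025.4 and 1003.9 in the control. In both, every mimic array lay below both controls, and the miR-483-3p array was the lowest of the 5. The log2 differences of these probe sets were -0.20 and -0.21 (SE 0.13 each) for miR-483-5p and -0.42 and -0.34 (SE 0.16 each) for miR-483-3p. The remaining 3 KLF6 probe sets gave -0.13 to -0.31 for miR-483-5p and -0.09 to -0.45 for miR-483-3p, so all 5 had the same sign in both comparisons. In 208961_s_at and 208960_s_at the first miR-483-5p array, at 516.1 and 287.8, lay within or above the controls, at 514.1 and 496.6 and at 285.6 and 296.9. Without the second miR-483-5p array, the differences were -0.09 in 1555832_s_at, -0.10 in 224606_at, 0.03 in 208961_s_at, -0.02 in 208960_s_at and -0.22 in 211610_at. In each, this was the value nearest 0 or past it with 1 array left out.

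KLF7, an activator needed for the growth of sensory neurons in mice, was lower with both arms in its brighter probe sets. Probe set 204334_at had 172.1 and 176.9 with miR-483-5p, 188.8 with miR-483-3p, against 229.3 and 238.2 in the control. Probe set 1555420_a_at had 114.9 and 125.6 with miR-483-5p, 115.1 with miR-483-3p, against 172.0 and 174.9 in the control. The mimic arrays stood well clear of the controls in both, with little spread within either pair. The log2 differences were -0.36 and -0.43 (SE 0.11 each) for miR-483-5p and -0.27 and -0.48 (SE 0.14 each) for miR-483-3p. With 1 array left out at a time, those for miR-483-5p stayed within -0.39 to -0.34 and -0.48 to -0.38. Probe set 238517_at had 72.3 and 95.2 with miR-483-5p, 88.4 with miR-483-3p, against 98.3 and 129.8 in the control, again without overlap but with a control pair that was itself far apart. The other 2 differed from these: with miR-483-5p both 240432_x_at and 238482_at overlapped the controls, with log2 differences of -0.16 and 0.09. With miR-483-3p, 240432_x_at lay just below both controls, by -0.14, at 130.2 against 163.9 and 130.6. There 238482_at lay above both, by 0.19, at 98.4 against 84.0 and 80.7.

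KLF3, the CtBP-dependent repressor, was lower with both mimics in all 4 of its probe sets. The one with the highest signals, 225133_at, had 736.9 and 646.5 with miR-483-5p, 716.9 with miR-483-3p, against 850.6 and 768.9 in the control. Probe set 225140_at had 180.8 and 302.3 with miR-483-5p, 309.8 with miR-483-3p, against 406.7 and 360.5 in the control. Every mimic array lay below both controls in each of the 4, though for 222913_at the first miR-483-5p array, at 180.9, and the first control, at 181.6, were nearly equal. Differences for miR-483-5p ran from -0.22 to -0.64 on the log2 scale and for miR-483-3p from -0.17 to -0.43. The miR-483-5p pair was far apart in 225140_at and 219657_s_at, where the first array was the lower by 0.65 and 0.68. With 1 array left out at a time, the miR-483-5p differences ran from -0.31 to -0.13 in 225133_at, from -0.96 to -0.31 in 225140_at, from -0.76 to -0.08 in 219657_s_at and from -0.91 to -0.20 in 222913_at. The sign held in each while the size did not. The value nearest 0 came without the second miR-483-5p array in 225133_at, without the first in 225140_at and 219657_s_at, and without the second control array in 222913_at. For miR-483-3p, 222913_at differed by -0.78 without the first control array and by -0.07 without the second, and the other 3 stayed within -0.36 to -0.10.

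**Figure D2:**
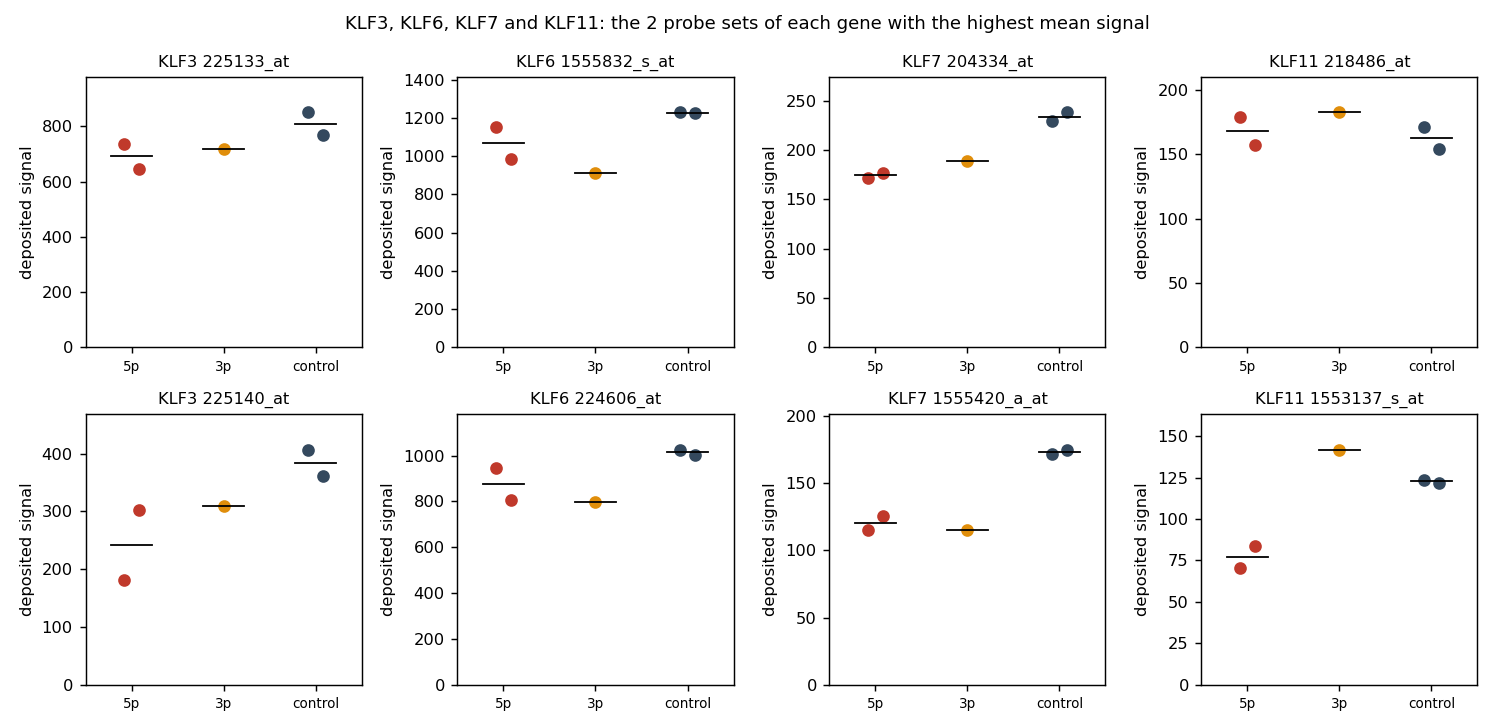
Signal on each array for the 2 probe sets with the highest mean signal of KLF3, KLF6, KLF7 and KLF11, with miR-483-5p (5p), miR-483-3p (3p) and scrambled control from left to right. Points are arrays, lines are group means and all axes start at 0; the mimic arrays lie below both controls for KLF3, KLF6 and KLF7, whereas KLF11 1553137_s_at is low with miR-483-5p alone, at 70.3 and 83.5.

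Among the SIN3A-dependent repressors, KLF11, first described as a gene induced early by TGF-beta, differed between the arms in one probe set. Probe set 1553137_s_at had 70.3 and 83.5 with miR-483-5p, 141.8 with miR-483-3p, against 123.4 and 122.0 in the control. It was low in both miR-483-5p arrays and above the controls in the miR-483-3p array. The log2 difference was -0.51 (SE 0.12) for miR-483-5p minus control, 0.17 (SE 0.15) for miR-483-3p minus control and -0.68 (SE 0.15) for miR-483-5p minus miR-483-3p. The miR-483-5p difference was -0.60 to -0.42 with 1 array left out at a time. The brighter KLF11 probe set, 218486_at, had 178.9 and 156.8 with miR-483-5p, 182.4 with miR-483-3p, against 171.2 and 153.9 in the control. Here the miR-483-5p and control arrays overlapped, with a difference of 0.04 (SE 0.13). As for KLF2, the 2 probe sets of this gene differ in what they show.

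KLF10, the closest relative of KLF11 and also induced early by TGF-beta, has 1 probe set. It had 143.1 and 119.9 with miR-483-5p, 147.1 with miR-483-3p, against 162.0 and 96.8 in the control. The control pair spanned all 3 mimic arrays. KLF13, a regulator of the chemokine gene CCL5 in T cells, had 1 probe set above the 40th percentile, 225390_s_at, with 400.6 and 264.3 with miR-483-5p, 300.1 with miR-483-3p, against 280.0 and 271.4 in the control. Only the first miR-483-5p array stood out there, and the other 3 KLF13 probe sets had signals of 3.0 to 33.9. KLF9, which glucocorticoid and thyroid hormone induce, had signals of 6.3 to 75.4 over its 5 probe sets, 3 of them under the 40th percentile. Its miR-483-5p arrays overlapped the controls in 4 of them, and the differences for miR-483-3p ran from -0.26 to 0.52 on the log2 scale.

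Over the family, 14 of 32 probe sets were lower in both miR-483-5p arrays than in both controls, which 20.5% of all probe sets were, and 2 were higher, which 16.1% of all were. The 14 belonged to KLF2, KLF3, KLF6, KLF7, KLF9, KLF11 and KLF13. Those of KLF9 and KLF13, 203543_s_at and 230094_at, were under the 40th percentile. The brighter probe sets of these genes overlapped the controls with miR-483-5p. The miR-483-3p array lay below both controls in 18 of 32, against 34.4% of all probe sets, and above both in 9, against 32.9%. All 3 mimic arrays lay below both controls in 11 of 32, against 12.3% of all probe sets. These 11 were 4 of KLF3, 3 each of KLF6 and KLF7, and the brighter one of KLF2, so that 4 genes supplied them. All 3 mimic arrays lay above both controls in 2, the dimmer KLF2 probe set and 221841_s_at of KLF4, against 9.98% of all. Probe sets of 1 gene read the same RNA and both comparisons use the same controls, so these counts are not independent of each other. The median log2 difference of the 32 was -0.18 for miR-483-5p and -0.15 for miR-483-3p, beside -0.02 and -0.01 over all probe sets. A difference of -0.5 or lower was reached by 4 of 32 with miR-483-5p, namely KLF2, 2 of KLF3 and 1 of KLF11, against 2.82% of all, and by KLF2 alone with miR-483-3p, against 4.54% of all. A difference of 0.5 or higher was reached by none with miR-483-5p, against 2.24% of all, and by 1 of KLF9 with miR-483-3p, against 3.43%. No probe set of KLF2, KLF3, KLF6 or KLF7 changed sign against the control under median centring or quantile normalization. Of the 32, 24 lay above the 40th percentile and 8 under it, these being 3 each of KLF9 and KLF13 and 1 each of KLF4 and KLF5.

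**Figure D3:**
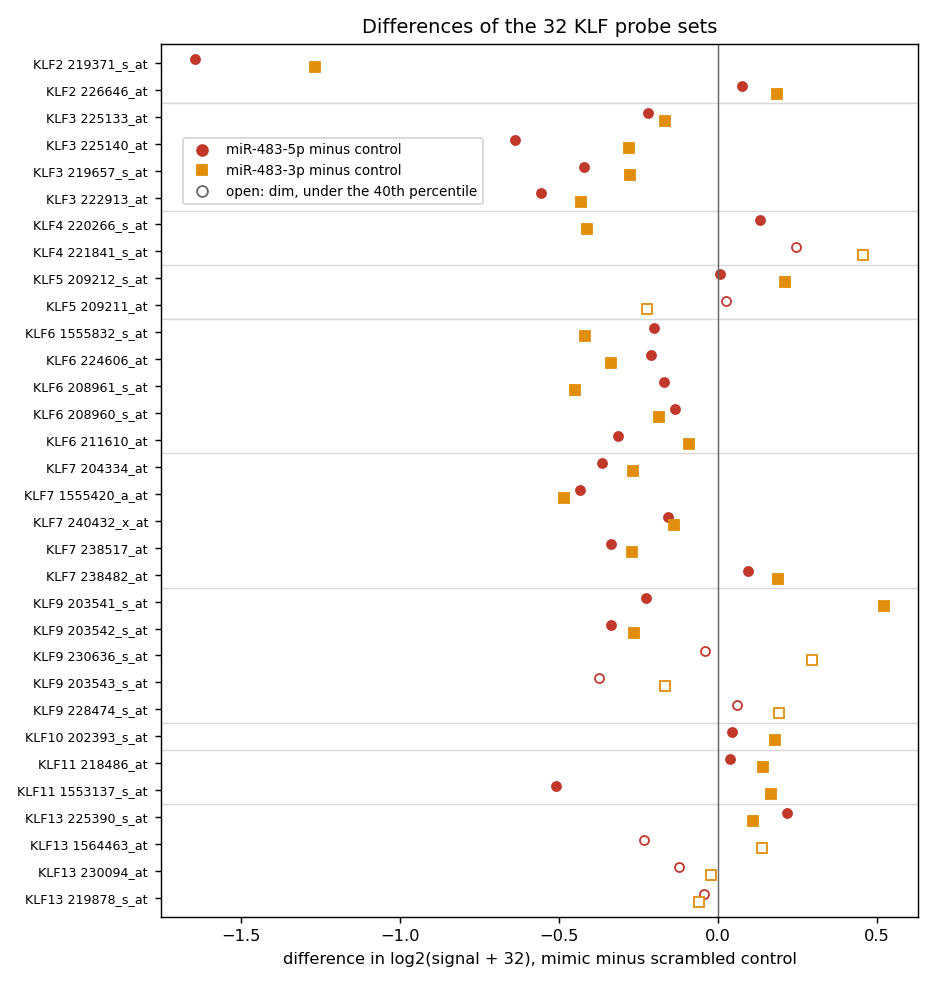
Difference in log2(signal + 32) of each mimic from the scrambled control for the 32 KLF probe sets, grouped by gene with the brightest probe set of each gene on top. Circles are miR-483-5p and squares miR-483-3p, open where the probe set is under the 40th percentile of all; the brighter KLF2 probe set, at -1.64 and -1.27, stands far to the left of the other 31, which run from -0.64 to 0.52.

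Set against each other, the arms differed by over 0.5 on the log2 scale in 1 probe set each of KLF9, KLF11 and KLF4. The share of all probe sets that differed this far between the arms was not counted, so whether this is unusual is not known. Both miR-483-5p arrays lay below the miR-483-3p array in 15 of 32 probe sets, against 34.7% of all probe sets, and above it in 5, against 31.3%. KLF9 203541_s_at had 17.9 and 49.9 with miR-483-5p and 75.4 with miR-483-3p, a difference of -0.75 (SE 0.36), with control arrays at 32.8 and 54.2. KLF4 220266_s_at differed by 0.54 (SE 0.25), higher with miR-483-5p. These 2 rested on single arrays: without the first miR-483-5p array they were -0.39 for KLF9 and 0.79 for KLF4, and without the second -1.11 and 0.30. KLF11 1553137_s_at stayed at -0.76 to -0.59 with either miR-483-5p array left out. Differences of over 0.5 also arose elsewhere when 1 array was left out, at -0.56 in KLF13 1564463_at without the first miR-483-5p array and -0.68 in KLF3 225140_at without the second. The brighter KLF2 probe set was also lower with miR-483-5p than with miR-483-3p, by -0.38 (SE 0.20). KLF6 was split, with 3 of 5 probe sets higher with miR-483-5p than with miR-483-3p by 0.13 to 0.28, 208960_s_at overlapping at 0.05, and 211610_at lower at -0.23. A single miR-483-3p array gives no spread of its own. These standard errors take its spread from the groups of 2 and from a value shared by all probe sets.

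The genes whose profile over the 5 arrays came nearest to the brighter KLF2 probe set were H2AC6, BBLN, RHOB, EGR1, RNA45SN5 and ALCAM. Nearness was the root mean square difference of centred log2(signal + 32) profiles among 15172 probe sets of a named gene with a mean signal of at least 100, and 0 means identical. It was 0.24 for H2AC6, a replication-dependent histone gene, 0.29 for BBLN, and 0.33 to 0.35 for the others, against 0.81 for the dimmer KLF2 probe set. H2AC6 had 380.2 and 288.7 with miR-483-5p, 422.5 with miR-483-3p, against 972.5 and 666.5 in the control. EGR1, an immediate early zinc finger factor, had 129.7 and 134.3 with miR-483-5p, 84.0 with miR-483-3p, against 343.2 and 303.9 in the control. In these 2 probe sets, as for KLF2, every mimic array lay far below both controls. The other EGR1 probe sets differed less, by -0.18 and -0.49 for miR-483-5p and by -0.48 and -0.75 for miR-483-3p. ALCAM, an adhesion molecule gene, differed in that its miR-483-3p signal of 433.9 lay near the lower control of 494.3, with 223.6 and 244.7 in the miR-483-5p arrays.

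**Figure D4:**
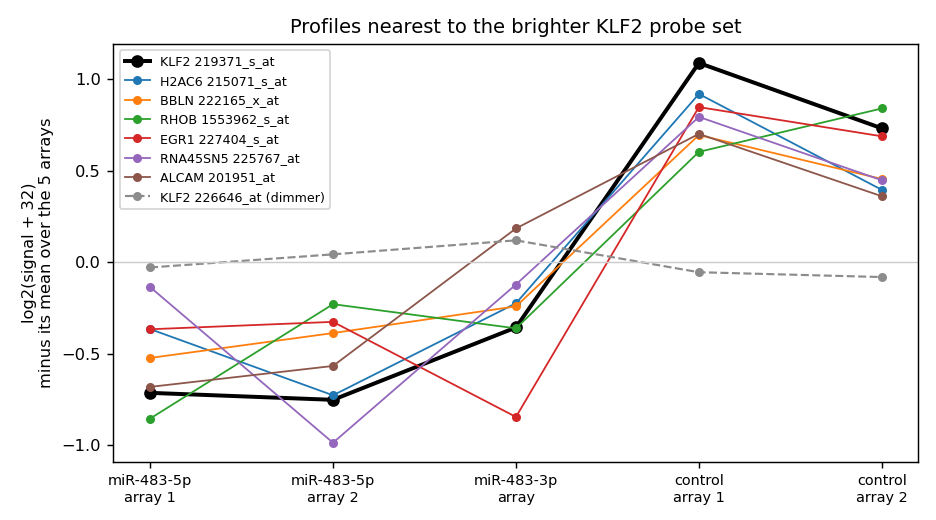
Centred log2(signal + 32) of the brighter KLF2 probe set (thick black), of the 6 genes with the nearest profile (thin lines) and of the dimmer KLF2 probe set (dashed grey) on each of the 5 arrays. The lines join arrays for legibility and imply no order. The 6 genes were chosen for their likeness to KLF2, at distances of 0.24 to 0.35. They follow it in lying low on the miR-483-5p arrays and high in the controls. On the miR-483-3p array all but ALCAM lie low, and ALCAM, at a signal of 433.9, lies near the lower control of 494.3.

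Genes outside the 10 members were tested, in 8 lists of relatives, regulators, cofactors and reported targets that held 63 measured genes of 68. No gene passed limma's test at an adjusted p of 0.05 in either mimic comparison or between the arms, where 0% of all 54613 probe sets did. At an unadjusted p under 0.05 there were 9 of the 63 genes for miR-483-5p and 3 for miR-483-3p, where 7.68% and 6.29% of all probe sets reached it, and 5 between the arms, where 6.28% did. The lowest limma adjusted p among them was 0.621 for miR-483-5p, shared by SP4, FBXO32 and TGFBR1 among others, and 0.778 for miR-483-3p. The values that follow are therefore descriptions.

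Of the 7 other KLF genes, 4 were higher and 3 lower with miR-483-5p (median 0.04), and 2 were higher and 5 lower with miR-483-3p (median -0.06). KLF16, a SIN3A-dependent repressor, had 239.0 and 252.8 with miR-483-5p, 171.2 with miR-483-3p, against 169.7 and 190.0 in the control. It stood above the controls with miR-483-5p, by 0.39 (SE 0.12), though its second probe set gave -0.05. KLF1, the erythroid factor, had 30.1 and 29.1 with miR-483-5p, 28.6 with miR-483-3p, against 40.7 and 41.4 in the control, lower in every mimic array at a dim level. KLF8 was near the bottom of the scale except for 23.5 in the miR-483-3p array, against 4.4 and 1.2 in the control. Its second probe set did not share this, at 2.8 with miR-483-3p, against 3.8 and 2.0 in the control.

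In the brightest probe set of each gene, the SP genes were higher in 7 of 8 measured with either mimic. The medians were 0.21 for miR-483-5p and 0.09 for miR-483-3p, beside -0.02 and -0.01 over all probe sets. Under median centring all 8 were higher with either mimic, with medians of 0.24 and 0.13. Other SP1 probe sets ran from -0.55 to 0.14 for miR-483-5p and from -0.23 to 0.26 for miR-483-3p. Those of SP3 ran from -0.59 to 0.14 and from -0.24 to -0.05. SP4, an activator prominent in neurons, had 235.2 and 227.3 with miR-483-5p, 145.0 with miR-483-3p, against 144.5 and 125.3 in the control. SP8, a factor of limb and forebrain development, had 60.1 and 64.1 with miR-483-5p, 35.8 with miR-483-3p, against 35.6 and 36.7 in the control. In these probe sets the miR-483-5p arrays lay above the controls, while the miR-483-3p array lay just above them for SP4 and between them for SP8. The SP4 difference was 0.66 (SE 0.12) for miR-483-5p and 0.09 for miR-483-3p, but its second probe set gave 0.31 and 0.50, so the arms stood in the opposite order there. The SP8 difference was 0.47 (SE 0.11) for miR-483-5p and -0.01 for miR-483-3p, and its second probe set gave -0.05 and -0.26. For miR-483-3p, SP2 and SP5 had the lowest p of the list, with differences of 0.43 and 0.33, and the other SP2 probe sets gave -0.05 and -0.03. SP5 was under the 40th percentile, at 10.2 and 5.6 with miR-483-5p, 18.8 with miR-483-3p, against 11.9 and 5.4 in the control.

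The kinases and factors placed upstream of KLF2 and KLF4 were nearly balanced, with 4 of 10 higher and 6 lower for each mimic and medians of -0.03 and -0.05, which under median centring were 0.01 and -0.02. MEF2A, which binds the MEF2 site, had 281.8 and 278.5 with miR-483-5p, 333.6 with miR-483-3p, against 343.8 and 335.1 in the control. The difference was -0.25 (SE 0.11) for miR-483-5p and -0.02 for miR-483-3p, and the other 3 MEF2A probe sets ran from -0.11 to 0.05 and from -0.20 to -0.03. MEF2D had 87.4 and 60.6 with miR-483-5p, 76.1 with miR-483-3p, against 140.8 and 86.9 in the control, where the control pair itself was far apart, and its other 2 probe sets gave -0.10 and 0.17 for miR-483-5p and -1.02 and 0.65 for miR-483-3p. MEF2C was dim, at 31.0 and 38.7 with miR-483-5p, 36.6 with miR-483-3p, against 29.5 and 15.7 in the control. Here every mimic array lay above both controls, with differences of 0.30 for miR-483-5p and 0.34 for miR-483-3p. The other MEF2C probe sets gave -0.19 and -0.02 for miR-483-5p and 0.00 and 0.49 for miR-483-3p. FOXP1, a forkhead factor, was higher with miR-483-5p at 474.1 and 407.8, against 336.7 and 321.4 in the control, with -0.28 to 0.15 in its other 7 probe sets.

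Among ligases of KLF protein turnover, FBXO32, a ubiquitin ligase subunit of muscle atrophy, had 19.5 and 36.6 with miR-483-5p, 31.1 with miR-483-3p, against 64.0 and 67.4 in the control. It was lower in every mimic array, by -0.72 (SE 0.18) and -0.63 (SE 0.22), while its other 6 probe sets ran from -0.87 to 0.21 for miR-483-5p and from -0.27 to 0.43 for miR-483-3p. WWP1, a ligase of KLF2 and KLF5, differed by 0.14 and -0.16. The list had 2 of 6 genes higher with miR-483-5p and 1 of 6 with miR-483-3p, with medians of -0.01 and -0.15, and 4 of 6 higher with miR-483-5p under median centring (median 0.02). Among 8 cofactors measured, 6 were higher with miR-483-5p and 2 with miR-483-3p, with medians of 0.14 and -0.05. SIN3A had 407.1 and 441.9 with miR-483-5p, 410.3 with miR-483-3p, against 327.8 and 306.9 in the control, above the controls in each mimic array, although its other 3 probe sets ran from -0.36 to 0.36 for miR-483-5p and from -0.44 to 0.20 for miR-483-3p. The deacetylase genes HDAC1 and HDAC2 differed by 0.08 and 0.14 for miR-483-5p and by -0.16 and -0.07 for miR-483-3p, and the second HDAC2 probe set gave -0.49 and -0.04.

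Reported KLF2 target genes, most of them known from endothelial cells, were in part dim here, with 6 of 10 above the 40th percentile. Of the 10, 4 were higher and 6 lower with either mimic, with medians of -0.07 and -0.06. The list mixes genes that KLF2 activates with genes that it represses. These counts and medians therefore give no direction for its targets as a set. VCAM1, an adhesion molecule gene that KLF2 represses in endothelium, had 30.9 and 23.6 with miR-483-5p, 20.0 with miR-483-3p, against 42.3 and 35.9 in the control. The mimic arrays were thus the lower ones, at signals close to the 40th percentile of 27.2. EDN1, the endothelin gene, differed by -0.21 for miR-483-5p, and ANGPT2, the angiopoietin gene, by -0.41 for miR-483-3p. Their other probe sets spanned 0, from -0.55 to 0.52 for EDN1 and from -0.19 to 0.34 for ANGPT2 in the same comparisons. The nitric oxide synthase gene NOS3, a target that KLF2 activates in endothelium, had signals of 2.0 to 18.2, all under the 40th percentile.

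In the TGF-beta list, to which KLF10 and KLF11 respond, 5 of 10 genes were higher with miR-483-5p and 4 with miR-483-3p, with medians of 0.03 and -0.04. TGFBR1, the type I receptor, had 411.5 and 342.2 with miR-483-5p, 208.6 with miR-483-3p, against 187.0 and 202.7 in the control. It stood well above the controls with the 5p arm, by 0.85 (SE 0.14), and just above them with the 3p arm, by 0.09. Its other 2 probe sets gave 0.28 and 0.75 for miR-483-5p and -0.06 and 0.58 for miR-483-3p. The inhibitor gene SMAD7 had 83.8 and 83.3 with miR-483-5p, 67.1 with miR-483-3p, against 58.7 and 51.9 in the control, the same order. Its difference was smaller than that of TGFBR1 for miR-483-5p, at 0.41, and larger for miR-483-3p, at 0.18. For miR-483-3p, SMAD3 differed by 0.39 and TGFBR2 by -0.36, but the other SMAD3 probe sets ran from -0.59 to 0.23 and the second of TGFBR2 gave 0.35. Among 4 glucocorticoid-induced genes measured, beside which KLF9 belongs, the repressor gene ZBTB16 differed by 0.49 and TSC22D3, which encodes the glucocorticoid-induced leucine zipper, by -0.34 for miR-483-5p, and by 0.17 and -0.46 for miR-483-3p. The other TSC22D3 probe sets gave -0.06 and 0.08 for miR-483-5p and -0.26 and 0.26 for miR-483-3p. The list medians were 0.07 and 0.03.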

How the data were processed

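There were 5 Affymetrix HG-U133 Plus 2 arrays, and the labels do not say whether a repeat array had RNA of its own. The deposited values are linear intensity, 1 for each probe set and array. The values show that the authors had scaled every array to a trimmed mean of 150, with 2% of probe sets trimmed from either end. GCOS and Partek are named in the submitters' processing notes, with no versions, and how probes were combined into signals is not stated there. The 62 control probe sets were left out, which left 54613, with no filter. Probe sets were named by the platform annotation where it gives 1 symbol, with symbols from RefSeq (GRCh38.p14) through the gene identifier.

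The log2(signal + 32) values were modelled by limma 3.58.1 (R 4.3.3), which estimated 1 mean for each group from the 5 arrays together and left 2 residual degrees of freedom. Tests were two-sided, with Benjamini-Hochberg adjustment over all probe sets and a threshold of 0.05. The lone miR-483-3p array was assumed to vary like the others. SD rests on 2 arrays a group. SE comes from limma's moderated variance, which draws the spread of each probe set toward a value shared by all probe sets. That shared value carried 2.50 prior degrees of freedom beside the 2 residual ones. The number of arrays limits the precision. Partner genes were represented by their brightest probe set. Named were all member probe sets, the 6 nearest profiles and the 2 genes of lowest p in each list and mimic comparison. NOS3 and the cell type markers were named beyond that rule, as context. Members and lists were chosen with earlier results of these data known. The fit was tested on simulated data. Alternatives were other normalizations, filters, pseudocounts, a variance prior that follows intensity, 1 probe set a gene, a replicate block and leaving out arrays. Figures were drawn with matplotlib 3.10.9.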

Additional observations from a re-analysis of the deposited data

How the results depend on the processing

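The number of arrays, 2 a group and 1 for miR-483-3p, limits every value, and without detection calls the distance of dim probe sets from background is unknown. The brighter KLF2 probe set kept its sign under all alternatives. For miR-483-5p and miR-483-3p minus control it was -1.38 and -1.08 with a pseudocount of 100, and -1.81 and -1.37 with a pseudocount of 1. Leaving out 1 array gave -1.46 to -1.82 and -1.09 to -1.45. The bright minus dim difference of KLF2 was -1.93 and -1.68 with a pseudocount of 1, and -1.42 and -1.19 with a pseudocount of 100, as the pseudocount weighs dim signals. Leaving out 1 array gave -1.55 to -1.88 and -1.29 to -1.62. The count of called probe sets was 0 in each comparison under every alternative but one. With a filter at the 40th percentile, 1 probe set a gene and median centring together, a setting added after seeing the data, it was 37 for miR-483-5p, 2 for miR-483-3p and 7 between the arms, and no partner gene was among them. With first arrays against repeats as a replicate block, KLF2 was at -1.64 and -1.37, and the counts stayed at 0. The repeats share only a label, and the deviations of first arrays from their group means correlated at r = 0.14 between the 2 pairs. Without the first control array the median of the 32 probe sets for miR-483-3p was -0.06. Over all member probe sets and alternatives, the sign turned in 20 of 383 values for miR-483-5p and 10 of 383 for miR-483-3p, among KLF4, KLF5, KLF6, KLF7, KLF9, KLF10, KLF11 and KLF13.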
